A study of Mus musculus with 2 samples.

Results

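Mir21a, Mir210 and Mir326 are 3 microRNA genes that the literature links to lung growth, to the response to low oxygen and to hedgehog signalling. They were chosen by name, as the rows of both deposited tables whose identifier carries one of these symbols in GENCODE release M21, and they are 3 of 1973 microRNA genes in the tables. The values come from sequencing of small RNA (under 30 bases, per the labels) of healthy lung of B6NCrl mouse embryos at embryonic day 16.5. A single group was sequenced, with no treatment or allele named, in 2 libraries labelled as biological replicates 1 and 2. Both libraries pool embryos of either sex, 41 of them for replicate 2, so a value is an average over embryos and not that of 1 animal. For replicate 1 no number of embryos was recorded here.

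A microRNA gene is transcribed as a hairpin from which a short mature strand, the 5p or the 3p arm, is cut and loaded into a silencing complex. Pairing of its seed, bases 2 to 8 of the mature strand, with a messenger RNA lowers the output of that messenger. MiR-21 is known for promoting cell growth and survival by repressing inhibitors of growth factor signalling, and it is raised in lung fibrosis. MiR-210 is the microRNA most regularly induced by the hypoxia-inducible factors and lowers mitochondrial iron-sulphur cluster assembly. MiR-326 represses Smoothened, a membrane protein of hedgehog signalling, and is made from an intron of Arrb1, which encodes a beta-arrestin.

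The mature strands are shown first, because their seeds group the genes that could act on the same messengers. All 3 members matched the RefSeq table (GRCm38.p6), with 6 mature arms. The seed is in capitals, and each line reads 5′ to 3′.
miR-21a-5p: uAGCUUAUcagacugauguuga
miR-21a-3p: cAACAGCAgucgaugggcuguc
miR-210-5p: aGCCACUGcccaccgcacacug
miR-210-3p: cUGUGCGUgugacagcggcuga
miR-326-5p: gGGGGCAGggccuuugugaaggcg
miR-326-3p: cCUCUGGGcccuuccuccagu
miR-330-5p, shown because it has the seed of miR-326-3p: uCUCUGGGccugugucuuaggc
miR-21c, shown because it has the seed of miR-21a-5p: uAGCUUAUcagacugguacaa
miR-21b, shown as the other copy named after miR-21: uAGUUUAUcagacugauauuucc

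No seed is shared among the 3 members. The search for other genes with these seeds left out 1 chromosome. On the chromosomes searched, neither seed of Mir210 occurs in another mature microRNA, and the same holds for miR-21a-3p and miR-326-5p. Counting positions from 1 at the 5′ end of miR-21a-5p, miR-21b differs inside the seed (C4U) and at G18A, G21U and A22C. MiR-21c has the same first 15 bases and differs at A16G, G18A, U19C, U20A and G21A. The deposited counts are per gene, so the arms of a hairpin could not be told apart.

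Mir21a (ENSMUSG00000065455.1) occupies chromosome 11 from 86584067 to 86584158, minus strand (mm10), inside Vmp1, a gene of autophagosome formation on the same strand, where it overlaps an annotated exon and UTR. Mir210 (ENSMUSG00000065551.1) occupies chromosome 7 from 141221384 to 141221493, minus strand, and overlaps no other gene of that annotation. Rassf7 ends 2726 bases from it and Phrf1 begins 7291 bases away, both on the opposite strand. Mir326 (ENSMUSG00000065571.1) is also on chromosome 7, at 99552269 to 99552363 on the plus strand, within an Arrb1 intron and in the direction of that gene. None of the 3 has another microRNA gene within 10 kb, so none belongs to a cluster at that distance.

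The hairpins of Mir210 and Mir326 are shown because the members differ in base composition. Both mature arms are in capitals, and the mm10 positions are those given above.
Mir210 hairpin: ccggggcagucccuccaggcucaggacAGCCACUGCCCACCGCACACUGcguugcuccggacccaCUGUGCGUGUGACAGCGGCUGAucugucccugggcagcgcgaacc
Mir326 hairpin: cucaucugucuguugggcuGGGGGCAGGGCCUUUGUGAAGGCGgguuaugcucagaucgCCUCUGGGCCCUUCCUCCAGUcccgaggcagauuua

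The Mir210 hairpin of 110 bases was 69.1% G or C, the 9th highest of 295 detected genes with a RefSeq hairpin. The Mir326 hairpin of 95 bases was at 60.0% (place 44) and the Mir21a hairpin of 92 bases at 45.7% (place 202), against a median of 50.5%. Among the mature strands, miR-21a-5p was 36.4% G or C, miR-210-3p 63.6% and miR-326-3p 66.7%. The folding energy predicted by RNAfold was -46.2 kcal/mol for Mir21a, -48.0 for Mir210 and -50.8 for Mir326, all lower than the median of -37.1. Per base, Mir210 (-0.436) was at the median (-0.437), and Mir326 (-0.535) and Mir21a (-0.502) were lower.

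Depth was 6376715 counts over microRNA genes in replicate 1 and 4123748 in replicate 2. Levels are given in CPM, that is counts per 1000000 gene counts of the library, and a gene is called detected at 10 or more counts in each library, which 347 genes reached. Markers of cell types found in lung were read next. These cell types are not particular to lung, so their markers cannot check the tissue label. Epithelial microRNAs (5 of 5 detected) held 3.33% ± 0.0947 of gene counts (SD, n = 2), endothelial Mir126a 8.32% ± 0.577 and mesenchymal microRNAs (3 of 3 detected) 7.69% ± 0.172. No defining marker of these cell types was at 0.

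The first question was how abundant the 3 microRNAs were in the lung. All 3 were detected, and their levels spanned more than 2 orders of magnitude. By assigned reads Mir21a was among the most abundant microRNAs of the tissue, Mir210 was in the middle of the detected genes and Mir326 was in the lower part. Reads that matched several loci were not assigned, so genes with near copies may be counted too low. No member shares 22 bases with another microRNA gene, so the members may rank too high. Together they held 0.906% ± 0.00856 of gene counts (SD, n = 2), nearly all of it Mir21a. Because each library is bulk tissue, fewer cells of a type and less RNA per cell cannot be told apart.

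Mir21a had 55132 counts in replicate 1 and 36057 in replicate 2, or 8646 CPM (95% interval 8574 to 8718) and 8744 CPM (8654 to 8834). Its mean was 8695 CPM ± 69.2 (SD, n = 2), so about 1 in 116 gene counts of replicate 1 and 1 in 114 of replicate 2 came from this gene. By assigned reads it was in place 24 of all genes in both libraries, above 93.1% of detected genes.

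Mir210 had 2019 and 1389 counts, or 316.6 CPM (303 to 331) in replicate 1 and 336.8 CPM (319 to 355) in replicate 2. Its mean was 326.7 CPM ± 14.3 (SD, n = 2), in place 143 in replicate 1 and 140 in replicate 2. The mean lay above 59.4% of detected genes, whose median level was 180.2 CPM.

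Mir326 had 219 and 154 counts, or 34.3 CPM (29.9 to 39.2) in replicate 1 and 37.3 CPM (31.7 to 43.7) in replicate 2. Its mean was 35.8 CPM ± 2.12 (SD, n = 2), above 30.5% of detected genes, in place 243 and 239. About 1 in 29117 gene counts of replicate 1 was from Mir326, and its intervals are the widest of the 3 because they rest on the fewest counts.

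**Figure D1:**
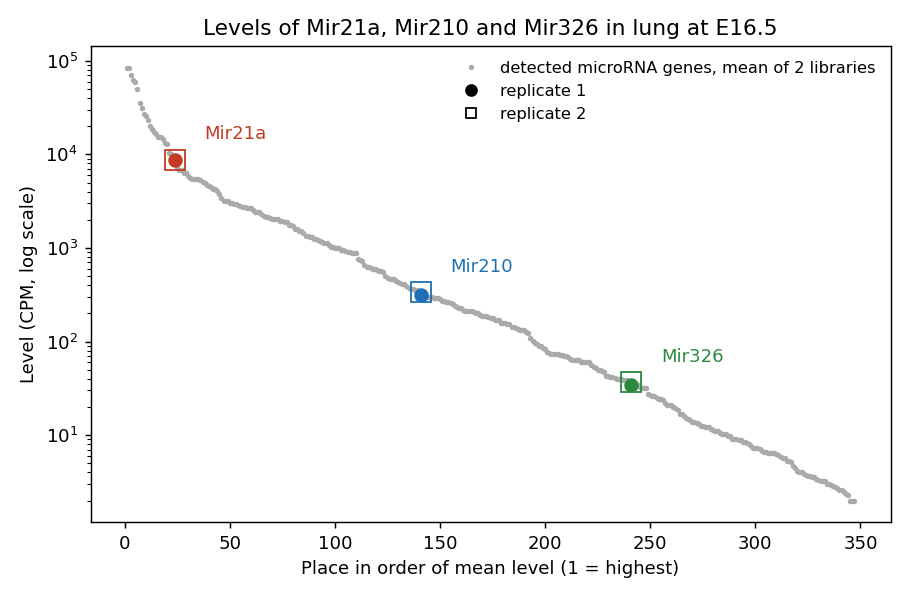
Mean level of each detected microRNA gene (grey points, CPM on a log axis) against its place in order of level, with Mir21a, Mir210 and Mir326 shown by library (filled circle for replicate 1, open square for replicate 2). By assigned reads Mir21a sits in place 24, Mir210 in place 141 and Mir326 in place 241 of 347. For each of them the values of both libraries nearly coincide. Genes with near copies may be counted too low.

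The plot of level against place shows the order of the members, which was the same in both libraries. Mir21a was 27.3-fold above Mir210 in replicate 1 (95% interval 26.1 to 28.6) and 26.0-fold in replicate 2 (24.6 to 27.4). Mir210 was 9.22-fold above Mir326 in replicate 1 (8.02 to 10.6) and 9.02-fold in replicate 2 (7.63 to 10.7). These gaps are far larger than the spread between the libraries, at 26.6-fold ± 0.953 and 9.12-fold ± 0.141 (SD, n = 2). Small RNA reads cover whole mature strands, so these are ratios of reads per gene. Per base of the annotated hairpin they were 31.8-fold and 7.88-fold. Whether strands of different sequence were read equally well was not tested, and neither the intervals nor the SD would show it.

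Genes next to the members in mean level were compared by the ranges of both libraries, again per gene. Mir21a stood apart from its neighbours. Above it were Mir98, a member of the let-7 family (10131 CPM ± 930), and Mir411 of the imprinted Dlk1-Dio3 locus (9457 ± 367), and below it Mir93 (7158 ± 174) and Mir20a (6808 ± 901), both of the miR-17 family (SD, n = 2). None of these 4 ranges overlapped that of Mir21a. For Mir210 the range overlapped those of 3 of its 4 neighbours: Mir543 (355 ± 29.4), Mir363 (325.7 ± 4.70) and Mir125b-2 (319 ± 5.86). Only that of Mir34a (340.1 ± 1.86), a microRNA induced by p53, lay wholly above it. For Mir326 the ranges of all 4 neighbours overlapped its own, namely Mir3072 (38.5 ± 3.87), Mir450-1 (36.1 ± 3.33), Mir190a (35.5 ± 7.96) and Mir194-2 (34.3 ± 4.27). The places of Mir210 and Mir326 among these genes are therefore not resolved by 2 libraries. Mir125b-2, Mir450-1 and Mir194-2 share 22 bases with another microRNA gene and may be counted too low.

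A further question was whether near copies could have taken reads from the members. No member shares 22 bases with another annotated microRNA hairpin. The longest run that miR-21a-5p shares with another hairpin is 15 bases, with Mir21c, and for both arms of Mir210 it is 10 bases. For miR-326-5p it is 13 bases, with the reverse complement of Mir3072, and for miR-326-3p and miR-21a-3p 10 bases. Mir21c had 0 counts in both libraries, and Mir21b had 0 in replicate 1 and 1 in replicate 2. A count of 0 allows up to 3 counts, or 0.470 CPM in replicate 1 and 0.727 CPM in replicate 2, and on that floor Mir21a was at least 18377-fold higher than Mir21c in replicate 1 and at least 12019-fold higher in replicate 2. Reads that matched several loci, 29.97% and 31.8% of each table, are not assigned to genes. Opposite-strand reads were 1 for Mir21a (replicate 2), 1 for Mir210 (replicate 1) and 0 for Mir326.

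The seed of miR-326-3p also occurs in a gene with a higher count. Mir330, whose 5p arm has that seed, lies on chromosome 7 in a different region, its 5p arm at 19181486 to 19181507 on the plus strand. Mir330 had 789 counts in replicate 1 and 495 in replicate 2, or 123.7 and 120.0 CPM, all above the values of Mir326. It was 3.60-fold above Mir326 in replicate 1 (95% interval 3.10 to 4.20) and 3.21-fold in replicate 2 (2.68 to 3.88). Per hairpin base the mean ratio was 3.30-fold. Mir326 thus gave 22.7% ± 1.42 (SD, n = 2) of the counts of the 2 genes. Because arms were not counted apart, this share is of gene counts, and how many of them are the strands with the shared seed was not measured.

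The next comparison was between the libraries. With 1 library on each side, the test compares the reads of these libraries and not conditions. By an exact binomial test with Benjamini-Hochberg adjustment over all detected genes, 163 of 347 genes differed, a background of 47.0%, and 0 of the 3 members did. At an unadjusted p under 0.05 the count of members was also 0, but the share of all detected genes at that threshold was not counted. All 3 values were slightly higher in replicate 2, the direction of the median detected gene (log2 ratio 0.05).

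For Mir21a the ratio of replicate 2 over replicate 1 was 1.01 (95% interval 0.998 to 1.02, exact binomial test, p = 0.0966, adjusted p = 0.172). Among 99 detected genes at 1000 CPM or more, where counts are deep, 85.9% differed, and Mir21a was among those that did not pass. Only 15 of the 347 detected genes had a smaller log2 ratio in size. The direction of this ratio depended on the scale: with DESeq2's size factors it was 0.976 and passed the test (adjusted p = 0.000897), and with edgeR's TMM factors it was 0.986 (adjusted p = 0.0754). On each of these scales the libraries differed by less than 3% in Mir21a.

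For Mir210 the ratio was 1.06 (0.993 to 1.14, exact binomial test, p = 0.0765, adjusted p = 0.144), while 58.9% of genes at 100 to 1000 CPM differed. For Mir326 it was 1.09 (0.879 to 1.34, exact binomial test, p = 0.427, adjusted p = 0.549), and 14.4% of genes under 100 CPM differed. The interval of Mir326 is the widest of the 3, so its ratio is known least precisely.

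**Figure D2:**
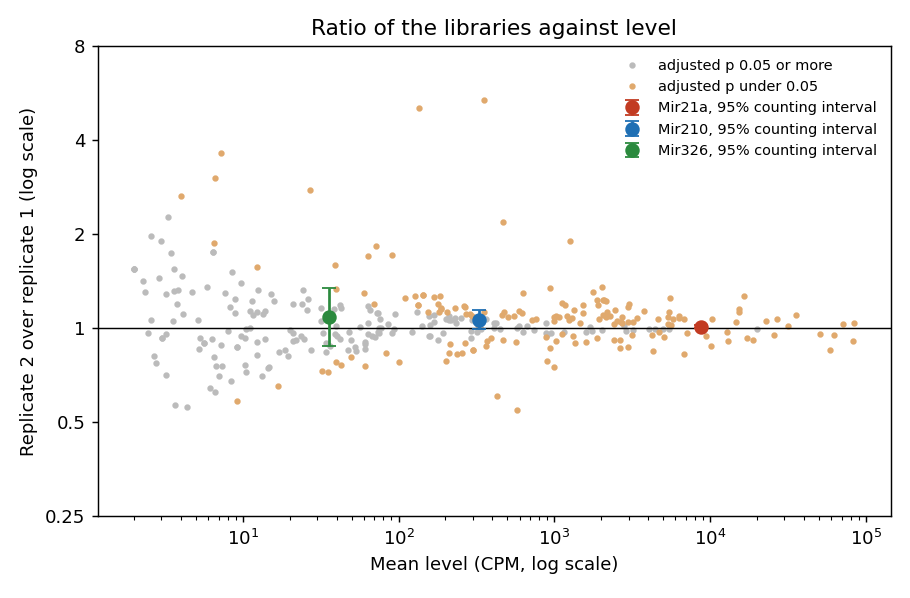
Ratio of replicate 2 over replicate 1 (log axis) against mean level (CPM, log axis) for 347 detected genes, in orange where the adjusted p was under 0.05, with the 3 members and their 95% counting intervals. The members lie at 1.01, 1.06 and 1.09, and the interval narrows from Mir326 to Mir21a as the counts grow.

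Markers of cell types were compared between the same libraries. Of 20 marker genes, 19 passed the test, of which 14 had the higher value in replicate 2 and 5 in replicate 1. Of all detected genes 47.0% passed, 106 higher in replicate 2 and 57 in replicate 1. All markers except Mir34b and Mir133b were above 100 CPM. There the share of all genes was 58.9% (100 to 1000 CPM) and 85.9% (1000 CPM or more). On the TMM scale 17 markers passed, 11 against 6, beside 45.5% of all detected genes (84 against 74). On DESeq2's scale 17 passed again, 10 against 7, beside 44.1% of all detected genes (75 against 78). The ratio of replicate 2 over replicate 1 was 5.39 for Mir122 of liver and 2.19 and 3.02 for Mir206 and Mir133b of skeletal muscle. It was 1.27 to 1.59 for Mir449a, Mir34b and Mir34c, the 3 listed genes of multiciliated cells. Mir449c (1.24) and Mir449b (0.966), of the same family but not listed, did not pass the test. The ratio was 0.546 and 0.833 for Mir451a and Mir144 of red cells and 0.605 for Mir208a of heart muscle. Of genes not listed, Mir208b of heart muscle (0.891) passed the test. Mir499 of heart muscle (0.944), Mir486 of red cells (0.912), and Mir192 (0.955) and Mir194-2 (0.838) of liver and gut did not. Listed markers of the main lung cell types were nearer to 1 than the listed markers above. They were at 0.910 to 1.07 for epithelium, 0.907 for endothelium and 1.03 to 1.08 for mesenchyme. Mir375 of neuroendocrine cells (1.08) and Mir223 of myeloid cells (1.06) were also nearer to 1. The summed red cell markers (2 of 2 detected) held 0.103% and 0.0640% of gene counts and the liver marker 0.0111% and 0.0601%. The part of such cells in the level of the members was not tested.

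Other microRNAs of the same settings were described from lists, with medians and counts beside those of all detected genes (median level 180.2 CPM, 47.0% different between the libraries). The share of all detected genes that differed was 45.5% with TMM factors and 44.1% with DESeq2's size factors. In the list linked to hypoxia, 7 of 7 genes were detected, with a median of 292 CPM, and Mir210 was the third highest per gene among the assigned reads. Mir107, Mir199a-2 (60.6 CPM ± 6.52, SD, n = 2) and Mir199a-1 (5.65 ± 0.441) share 22 bases with another microRNA gene and may be counted too low, so that place is uncertain. Mir322, Mir107 and Mir155 passed the library test, each with the higher value in replicate 2, but the count depended on the scale: 2 genes passed with TMM factors (1 on each side) and 1, Mir20b, with DESeq2's size factors, higher in replicate 1. Mir322, the mouse counterpart of miR-424, which is induced in hypoxic endothelium, was at 84676 CPM ± 2070 (SD, n = 2), 259-fold ± 5.01 above Mir210. Mir107 was 4.47-fold ± 0.0764 above it, at 1461 CPM ± 39.0. Below Mir210 came Mir20b, a repressor of hypoxia-inducible factor, at 302 and 282 CPM. Its order against Mir210 was not settled by replicate 1 (ratio 1.05, 0.984 to 1.12) and turned per hairpin base (0.816). Mir155, a microRNA of activated immune cells, was at 69.4 CPM ± 8.81, and Mir210 lay 4.73-fold ± 0.395 above it, or 2.80-fold per hairpin base.

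Among the microRNAs linked to hedgehog signalling Mir326 was the lowest of 4. Mir324, which is known to target Smoothened and Gli1, was at 1774 CPM in replicate 1 and 1739 in replicate 2, 49.1-fold ± 3.60 above Mir326 (SD, n = 2). Mir125b-2 was at 319 CPM ± 5.86 and Mir125b-1 at 186 CPM ± 18.1, and both share sequence with another gene, so they may be counted too low. Of the 4 genes only Mir125b-1 passed the library test, and it was 1.15-fold higher in replicate 2 (1.05 to 1.26, exact binomial test, adjusted p = 0.00809). With DESeq2's size factors the only one was Mir324, higher in replicate 1, and with TMM factors both passed. The median level of the list was 252 CPM.

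In the list linked to lung growth and fibrosis 9 of 11 genes were detected, with a median of 2675 CPM over those detected, and Mir21a was the third highest per gene. Mirlet7d, which is lowered in fibrotic lung, was at 19889 CPM ± 86.8 (SD, n = 2), 2.29-fold ± 0.0282 above Mir21a. Mir17, which promotes growth of lung progenitors, was 2.17-fold ± 0.146 above it, at 18856 CPM ± 1119. Mir20a of the same cluster was lower than Mir21a in both libraries, by 1.16-fold (1.15 to 1.18) and 1.42-fold (1.39 to 1.44). Mir29a, which represses collagen genes, was at 128 CPM ± 21.3, so that Mir21a lay 68.8-fold ± 10.9 above it. Mir29b-1 and Mir29b-2 did not reach 10 counts in each library. Both share sequence with another gene, as do Mir29c and Mir92-1, so these genes may be counted too low. The median of the list is the level of Mir92-1, so that median and the place of Mir21a are uncertain. By the library test 5 of the 9 passed, of which Mir29a, Mir155 and Mir92-1 had the higher value in replicate 2 and Mir17 and Mir20a in replicate 1. With TMM factors the sides were 1 and 3. On DESeq2's scale they were 1 and 4, with Mir21a among the 4.

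**Figure D3:**
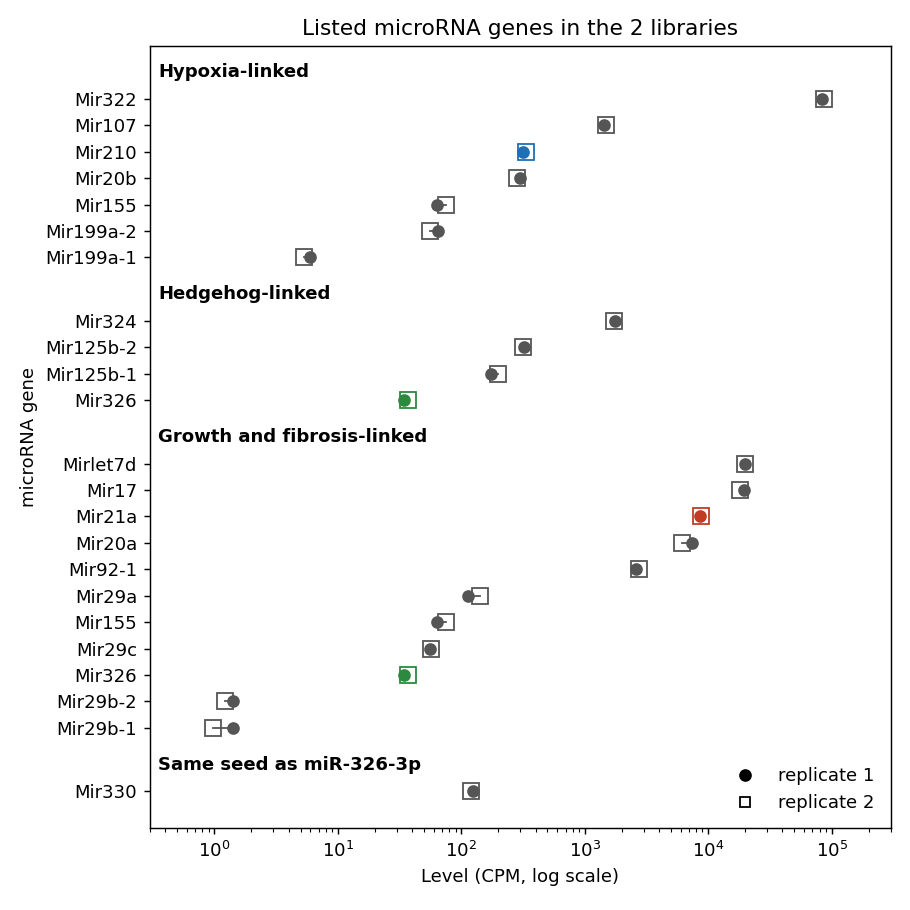
Level of each listed gene by library (CPM, log axis; filled circle for replicate 1, open square for replicate 2, members in colour). Counted per gene among assigned reads, Mir210 and Mir21a are each the third highest in their list. Mir326 is the lowest of the hedgehog-linked genes, and Mir330 with the seed of miR-326-3p lies above Mir326.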

How the data were processed

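The authors deposited raw counts of reads for each microRNA gene. Assembly mm10, GENCODE release M4 and an alignment as the origin are stated per the file headers (the notes deposited with the tables). For the aligner, counter and trimming, details were not given in the sources used here. Judged by the values, the first of 3 count columns ignores strand, since it equals the others added up in all 1973 genes. It was used throughout, and 4 summary lines were left out of all totals. Symbols and mm10 positions come from GENCODE M21 (1894 of 1973 identifiers matched), sequences from RefSeq (GRCm38.p6). Intervals are exact Clopper-Pearson intervals at 95% and, like the floor of 3 counts, cover counting error only, since without molecular identifiers PCR reads are not independent. Each detected gene was tested between the libraries by an exact binomial test (two-sided, conditional on its summed count, against the totals), Benjamini-Hochberg adjusted over 347 genes, threshold 0.05. The test was also run on simulated counts that held counting error only. That run had no spread between replicates, so it cannot show how the test behaves with the spread of these libraries. Genes were called copies where GENCODE hairpins share 22 bases. Scales came from edgeR 4.0.16 and DESeq2 1.42.0 in R 4.3.3, all else from Python 3.11.15, scipy 1.17.1 and RNAfold 2.7.2. Named genes are the members, genes found by the seed search and genes that share a member's name. The 2 genes above and below each member in mean CPM and listed genes are also named, as are some unlisted genes of the marker cell types. The members, lists and level classes were chosen with earlier results of these data known. Alternatives covered the count column, scaling, count minimum, hairpin length and each replicate left out.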

Additional observations from a re-analysis of the deposited data

How the results depend on the processing

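Of 44 alternative values, 33 were called the same. Ratios between the libraries had to keep their direction and side of the threshold. Levels and ratios between members had to move by less than the SD. The count of genes that differed had to stay within a set fold limit. With 2 libraries, leaving 1 out always moves a mean by less than the SD. Values with a replicate left out therefore had to be called the same and test nothing. The ratio of replicate 2 over replicate 1 of Mir21a turned to 0.986 with edgeR's TMM factors and to 0.976 with DESeq2's size factors, and on the latter scale it passed the test. Scaled to all reads of the table mean CPM was 4275 for Mir21a, 160.6 for Mir210 and 17.6 for Mir326. Without Mir322, the most abundant gene, it was 9499, 357 and 39.2, and with the sense-strand column Mir21a was at 8934. Per hairpin base, Mir21a over Mir210 was 31.8 and Mir210 over Mir326 was 7.88. With each replicate left out, Mir21a ranged from 8646 to 8744 CPM, Mir210 from 316.6 to 336.8 and Mir326 from 34.3 to 37.3, and the ratios from 26.0 to 27.3 (Mir21a over Mir210), 234 to 252 (Mir21a over Mir326) and 9.02 to 9.22 (Mir210 over Mir326). The count of genes that differed between the libraries was 153 to 163 under the scaling, column and count minimum alternatives. Its share of the genes tested was 27.8% with a minimum of 1 count (575 genes) and 57.4% with 50 (277 genes), against 47.0%, and 0 of the 3 members passed at either minimum. Its split was 106 higher in replicate 2 and 57 in replicate 1, but 84 and 74 with TMM factors and 75 and 78 with DESeq2's. A library cannot be left out of a ratio between the 2 libraries. No paired analysis was possible because there is a single group. Depth limits Mir326 most, with 219 and 154 counts.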
